A study of Mus musculus with 6 samples.

Results

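The genes described here encode the collagen and elastic fiber matrix of connective tissue and the proteins that mark the cells making it, and 36 of them were chosen by name. They comprised fibrillar collagens, collagen VI, the fibril-associated (FACIT) collagens, elastic fiber proteins, lysyl oxidases, matrix glycoproteins, surface markers of fibroblasts, genes of the contractile cells around vessels, and transcription factors of the tissue around the eye. A gene counted as measured if a probe set on the array was annotated to it alone, and where several were, the probe set with the highest mean log2 signal stood for the gene. By this rule 35 of the 36 genes were measured, out of 12393 genes with such a probe set, and Fbn1 (fibrillin 1) was not analysed here.

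Fibrillar collagens assemble outside the cell into banded fibers that carry tension, whereas elastic fibers consist of an elastin core laid on microfibrils of fibrillin and let a tissue recoil. Lysyl oxidases crosslink both. The lens itself is an epithelial tissue enclosed in a capsule of basement membrane, and mesenchyme derived largely from the neural crest lies around it, in the cornea, the iris and the vessels of the transient network that nourishes the newborn lens.

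Total RNA of newborn lenses, from 1-day old pups, was measured on Affymetrix arrays in 3 Pax6 heterozygous mice, which carry a Pax6lacZ allele in place of a working copy and hence lack 1 copy in every cell, and in 3 wild type mice of NMRI background. Each sample held both lenses of a single mouse, and the labels number the samples 1 to 3 within each genotype. The design asked which genes change with the loss of 1 copy of Pax6, which encodes a paired domain and homeodomain factor of the eye and brain. Signals are RMA-normalized intensities on a linear scale, which have no depth, so that the number of arrays limits the precision; levels of different genes depend on their probes and are not compared as amounts. Pax6 itself had signals of 942, 1170 and 882 in the heterozygous lenses, against 1169, 1760 and 963 in the wild type lenses, lower in each same-numbered pair though the genotypes overlapped. The lens identity of the tissue was clear from 15 measured lens fiber genes, all with a median signal of at least 100. Whole lens RNA was hybridized, so fewer cells of a type and less RNA per cell cannot be told apart.

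Signals of the mesenchyme and matrix genes spanned a wide range. The median over the 6 samples was at least 100 for 9 of the 35 genes and under 50 for 21, and 12 genes stayed under 25 in every sample (from 7.93 to 24.9). As a guide to background, 33 probe sets of olfactory receptor genes had median signals of 9.65 to 11.02 per array. Among the 12 dim genes were Postn, Thy1, Col12a1 and Twist1, all commonly used to mark fibroblasts or mesenchyme, and the matrix proteoglycan genes Dcn and Lum of a related list were dim in most samples too (10.02 to 37.03). That list was not dim as a whole. Of its 18 measured genes, 11 had a median under 50 and 7 had one of at least 50, with Sparc at 8487 and Ltbp1 at 2109. The members with medians of at least 100 were Rgs5, Mfap2, Fbn2, Col6a3, Pdgfra, Mfap4, Col1a1, Foxc1 and Loxl1.

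**Figure D1:**
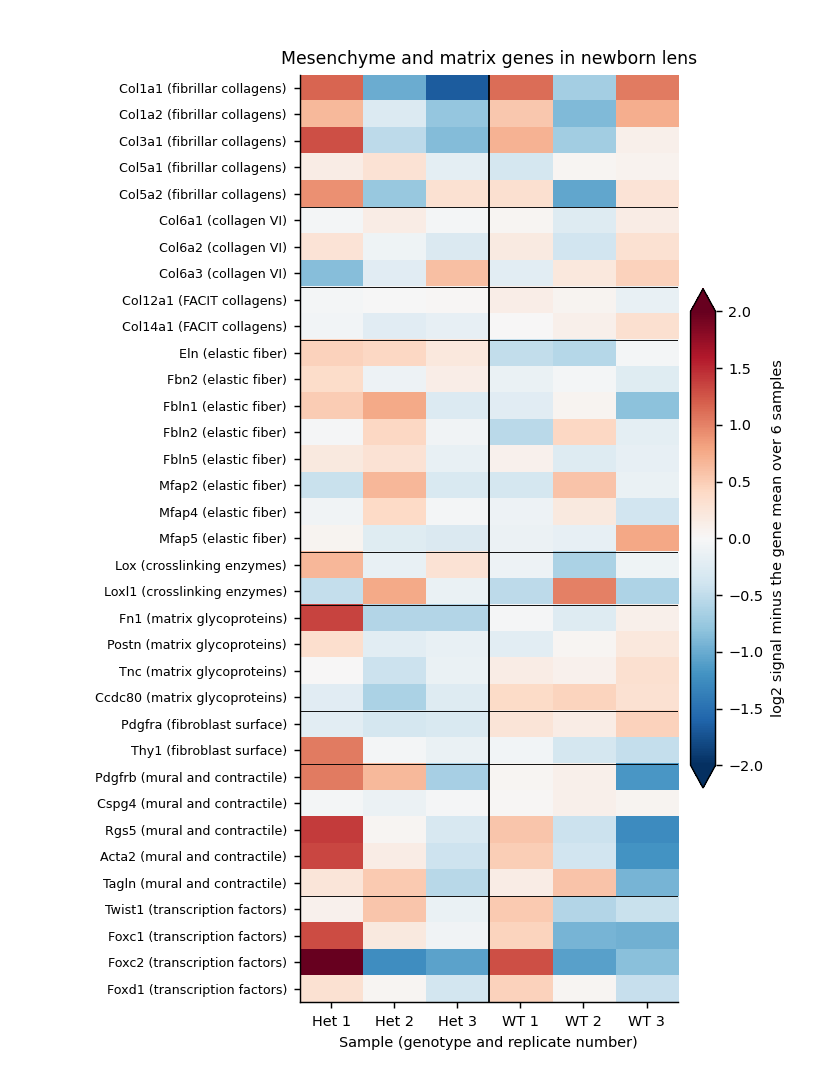
Log2 signal of the 35 measured genes in each sample (columns, Pax6 heterozygous on the left, wild type on the right, with replicate numbers), as the difference from the gene's mean over the 6 samples (color). Rows are grouped by role. Rgs5, Acta2 and Foxc1 are redder in replicate 1 of both genotypes, while Ccdc80 and Pdgfra are blue in all 3 heterozygous samples and red in all 3 wild type samples.

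No member passed the adjusted threshold between the genotypes in limma (adjusted p = 1.00 for each), as none of the 22626 probe sets tested did (0% called). At an unadjusted p under 0.05, 4 of 35 genes passed, against 1.99% of all probe sets: Eln was higher in the heterozygous lenses (0.977% of all probe sets were called in this direction) and Tnc, Ccdc80 and Pdgfra were lower (1.01%). By the unmoderated test of the methods at p under 0.10, 6 genes passed, beside 5.86% of all probe sets. The genotypes did not overlap for Eln, which lay above in all heterozygous samples (2.65% of all probe sets did so), and for Ccdc80, Pdgfra, Tnc, Col14a1 and Cspg4, which lay below (3.53%). Taken as a list, 20 genes had a log2 difference (heterozygous minus wild type) above 0 and 15 below, with a median of 0.12, beside a median of -0.01 over all probe sets. The median over the genes was 0.12, 0.10 and 0.04 in the pairs of replicates 1, 2 and 3; it came to 0.06, 0.05 and 0.27 without heterozygous replicates 1, 2 and 3 and to 0.02 without wild type replicate 2.

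Same-numbered samples of the 2 genotypes deviated together from their genotype means, so the comparison was also fitted with the replicate number as a block. With the block, 12 of the 35 genes had an unadjusted p under 0.05 (8 higher and 4 lower in the heterozygous lenses), against 9.03% of all probe sets (4.43% higher and 4.59% lower), and still none passed the adjusted threshold, beside 0.00884% of all probe sets. The 8 were Eln, Fbln1, Lox, Thy1, Pdgfrb, Rgs5, Acta2 and Foxc1, and the 4 were Tnc, Ccdc80, Pdgfra and Col14a1. All 3 pairs were higher in the heterozygous lenses for 11 genes (13.8% of all probe sets) and lower for 5 (17.2%), which makes 16 genes with the same direction in all pairs (31.0%). Among probe sets with a median signal of at least 50, 6 members passed with the block, where 11.6% of all such probe sets did.

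**Figure D2:**
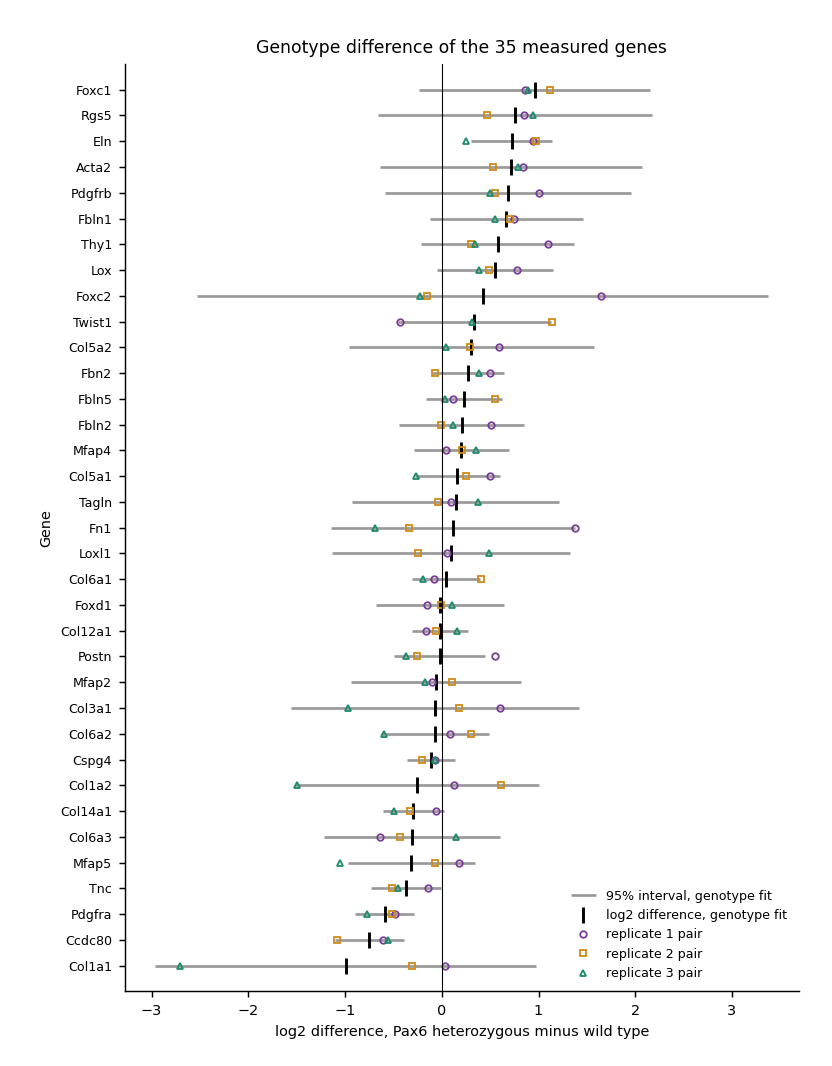
Log2 difference between Pax6 heterozygous and wild type lenses (horizontal axis) of the 35 measured genes (rows, sorted by the difference). Black ticks are the differences of the fit on genotype alone, gray lines their 95% intervals, and open symbols the differences within the same-numbered pairs. For Foxc1, Acta2 and Rgs5 the 3 pairs lie close together well inside a wide interval, and the interval leaves out 0 for Eln, Tnc, Pdgfra and Ccdc80.

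More members passed by replicate number than by genotype. An F test of the replicate number in a fit that holds genotype as a term, adjusted over all probe sets, passed for 14 of the 35 genes (40%), beside 19.4% of all probe sets, 21.1% of genes at a single probe set each and 35.0% of probe sets with a median of at least 50. Of the 14 members with such a median, 8 passed (57.1%). Of the 14 genes called by replicate number, 7 were highest in replicate 1 of both genotypes (Col3a1, Col5a2, Rgs5, Acta2, Foxc1, Foxc2 and Foxd1), 4 in replicate 2 (Fbln1, Mfap2, Loxl1 and Tagln) and 1 in replicate 3 (Col6a3), while Lox and Pdgfrb peaked in different replicates of the genotypes. For 10 of these genes, and for 11 of all 35, the order of the 3 replicates was the same in both genotypes. The F test favors genes whose profile the genotypes share, so this agreement among the called genes is no separate evidence. Its share over all probe sets was not computed. Over all members, replicate 1 was the highest in both genotypes for 9 genes (16.6% of all probe sets), replicate 2 for 6 (21.1%) and replicate 3 for 1 (19.7%). What samples of a number share is not given in the sources used here. The number of genes called was 9 without heterozygous replicate 2 and 9 without wild type replicate 2.

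Within a genotype, the highest sample exceeded the lowest by more than a factor of 2 for 16 genes in the heterozygous lenses and for 12 in the wild type lenses. The share over all probe sets was not computed, so these counts describe the members and do not set them apart. The largest ratios, 18.2 in the heterozygous and 5.22 in the wild type lenses, belonged to Foxc2.

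Fibrillar collagens form the tension-bearing fibers of connective tissue. Col1a1 encodes the main chain of type I collagen, and its signals were 351, 79.2 and 49.5 in heterozygous replicates 1 to 3, against 343, 98.3 and 324 in wild type replicates 1 to 3. Replicate 1 was thus high and replicate 2 low in both genotypes, while replicate 3 was low in the heterozygous and high in the wild type lenses. The log2 difference was -0.996 ± 0.818 (SE, n = 3 each; adjusted p = 0.638 with the block), and the replicate number did not pass the test (adjusted p = 0.135). In the pair of replicate 3 the log2 difference was -2.71 for Col1a1, -1.50 for Col1a2 and -0.97 for Col3a1. It was 0.04, 0.12 and 0.60 in the pair of replicate 1 and -0.31, 0.62 and 0.17 in that of replicate 2. A fit without either sample of replicate 3 takes its residual from replicates 1 and 2 alone. It therefore cannot decide whether these genes share a replicate profile.

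Col1a2, the partner chain of type I collagen, and Col3a1, of the type III collagen of distensible tissue, ranged from 16.4 to 50.3 and from 18.0 to 80.1, and only Col3a1 passed by replicate number (adjusted p = 0.0449). Col5a2, a chain of the type V collagen that limits fiber width, had 89.2, 28.1 and 58.7 in the heterozygous and 59.1, 23.0 and 57.1 in the wild type replicates 1 to 3. Replicate 2 was the lowest in both genotypes, 2.86-fold below replicate 1 (adjusted p = 0.0064) and by 1.19 on the log2 scale below replicate 3 (adjusted p = 0.0105). In contrast, Col5a1, its partner chain, varied from 39.9 to 62.0 with no call. By the probe sets that stood for them, none of the 5 fibrillar collagen genes passed an unadjusted p of 0.05 between the genotypes, with or without the block. Among their other probe sets, a dimmer one of Col3a1 was lower (-0.93 on the log2 scale) and a second one of Col5a1 higher (0.30) in the heterozygous sample of all 3 pairs, and both passed that threshold with the block.

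Collagen VI forms beaded filaments around cells. Col6a3 had 279, 430 and 763 in the heterozygous lenses and 435, 580 and 691 in the wild type lenses, and so was the only member highest in replicate 3 and lowest in replicate 1 of both genotypes (adjusted p = 0.0377 for the replicate number). The genotypes overlapped, with a log2 difference of -0.31 ± 0.38 (adjusted p = 0.652 with the block). Its partner chains Col6a1 (25.1 to 33.4) and Col6a2 (9.92 to 15.9) did not pass either test. The FACIT collagens, which sit on the surface of fibers, were near background. Col12a1 stayed between 7.93 and 9.57. Col14a1 had 10.6, 9.39 and 9.76 in the heterozygous and 11.1, 11.8 and 13.8 in the wild type lenses, which did not overlap, with a log2 difference of -0.30 ± 0.13 that passed the unadjusted threshold only with the block (adjusted p = 0.551). A second probe set of Col14a1 ran the other way, at 10.7, 10.8 and 11.7 in the heterozygous and 8.44, 10.1 and 10.2 in the wild type lenses, and the mean of both gave -0.04.

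Among the elastic fiber genes, Eln, which encodes elastin, was the only one past the unadjusted threshold on genotype alone. Its signals were 30.9, 29.8 and 26.1 in the heterozygous lenses, against 16.1, 15.2 and 21.95 in the wild type lenses. Every heterozygous value lay above every wild type value, with a mean of 29.0 ± 2.52 against 17.7 ± 3.67 (SD, n = 3 each). The log2 difference was 0.72 ± 0.17 (95% interval 0.30 to 1.14; adjusted p = 0.357 with the block). A second, dimmer probe set of Eln was also higher in each pair, at 15.1, 18.0 and 15.1 in the heterozygous and 13.1, 15.9 and 13.2 in the wild type lenses, but the genotypes overlapped there (0.19 ± 0.14 on the log2 scale). As the mean of both probe sets the difference was 0.46.

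Fbln1 encodes fibulin 1, a glycoprotein of elastic fibers and basement membranes. It had 97.2, 115 and 56.4 in heterozygous replicates 1 to 3, against 57.9, 70.4 and 38.6 in wild type replicates 1 to 3. The genotypes overlapped, with replicate 3 low in both, and the difference was of similar size in each pair (0.75, 0.71 and 0.55 on the log2 scale). The log2 difference of 0.67, which came to 0.42 without wild type replicate 3, had a standard error of 0.33 on genotype alone and of 0.10 with the block, where it passed the unadjusted threshold (adjusted p = 0.246). The second Fbln1 probe set was likewise higher in all 3 heterozygous samples than in their wild type partners (0.51 on the log2 scale, with a standard error of 0.11 with the block).

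Of the microfibril proteins, Mfap2, Fbn2 and Mfap4 had the highest signals of the elastic fiber group and Mfap5 the lowest. Mfap2, which encodes the microfibril-associated glycoprotein MAGP-1, had 719, 1562 and 792 in the heterozygous and 772, 1455 and 895 in the wild type replicates 1 to 3. Replicate 2 stood well above the others in both genotypes (adjusted p = 0.0118 for the replicate number), and the genotypes differed by -0.06 ± 0.37 on the log2 scale. Fbn2, the fibrillin of embryonic microfibrils, ranged from 606 to 841 in the heterozygous and from 547 to 635 in the wild type lenses (0.27 ± 0.16 on the log2 scale). Mfap4, a microfibril-associated protein, ranged from 221 to 383 and had no call. Fbln2 and Fbln5, which encode fibulins that bind elastin, and Mfap5, which encodes MAGP-2, were dim, from 9.53 to 20.1, and had no call. Across the 8 measured elastic fiber genes, 6 had a difference above 0, beside 46.5% of all probe sets, and the median was 0.22. Of the 8, 1 passed an unadjusted p under 0.05 on genotype alone and 2 passed with the block, beside 1.99% and 9.03% of all probe sets.

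Both lysyl oxidases were called by replicate number, though with different profiles. Lox, the founding member of the family, had 47.9, 27.3 and 37.0 in the heterozygous and 28.0, 19.5 and 28.3 in the wild type replicates 1 to 3, lowest in replicate 2 (adjusted p = 0.0471). Its 3 pairs were all higher in the heterozygous lenses, with a log2 difference of 0.55 ± 0.25. This passed the unadjusted threshold with the block (standard error 0.12, adjusted p = 0.318) and not on genotype alone. The difference came to 0.35 without heterozygous replicate 1 and to 0.26 as the mean of the 3 Lox probe sets, of which the 2 dimmer ones were not higher in all pairs. Loxl1, which acts on elastin, had 148, 344 and 186 in the heterozygous and 142, 409 and 133 in the wild type replicates 1 to 3. Replicate 2 was 2.39-fold above replicate 3 (adjusted p = 0.0136), and the genotypes did not separate (0.10 ± 0.51 on the log2 scale).

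Of the matrix glycoproteins, Ccdc80, which encodes a secreted matrix protein, was lower in the heterozygous lenses. Its signals were 69.9, 52.6 and 68.4 in the heterozygous lenses, against 106, 112 and 101 in the wild type lenses. The 2 sets did not overlap, and the heterozygous mean of 63.6 ± 9.56 was 59.8% of the wild type mean of 106 ± 5.37 (SD, n = 3 each). The log2 difference of -0.75 ± 0.15 had the smallest unadjusted genotype p of all members (adjusted p = 0.287 with the block). A second probe set near background was lower in each heterozygous sample than in its wild type partner (-0.41 ± 0.17 on the log2 scale).

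Tnc encodes tenascin C, a protein of developing and healing matrix, and was close to background. It had 11.7, 8.68 and 10.6 in the heterozygous and 12.9, 12.4 and 14.5 in the wild type lenses, without overlap (log2 difference -0.37 ± 0.15; adjusted p = 0.462 with the block). Of the 6 fits that left out a sample, Tnc passed the unadjusted threshold only in the fit without heterozygous replicate 1. Fn1, which encodes fibronectin, ranged from 25.8 to 99.5 with a single high sample, heterozygous replicate 1. Postn, which encodes periostin, ranged from 14.1 to 20.7. Neither passed a test.

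Pdgfra encodes the PDGF receptor of mesenchymal progenitors and is also known from lens epithelium, so that its signal cannot be assigned to mesenchyme in whole lens RNA. It had 431, 392 and 405 in the heterozygous lenses, against 603, 558 and 692 in the wild type lenses. No heterozygous value reached a wild type value, and the heterozygous mean was 66.3% of the wild type mean (409 ± 20.1 against 618 ± 68.1, SD, n = 3 each). The log2 difference was -0.59 ± 0.13 (95% interval -0.90 to -0.28; adjusted p = 0.287 with the block). Its replicates of a genotype lay close together, and the replicate number was not called (adjusted p = 0.595). The second Pdgfra probe set was at background, from 8.68 to 11.5, and the mean of both gave a difference of -0.33. Thy1, a surface protein of fibroblasts and neurons, ranged from 8.67 to 24.9, with heterozygous replicate 1 alone above 12; it was higher in the heterozygous lens of all 3 pairs and passed the unadjusted threshold with the block (adjusted p = 0.462).

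**Figure D3:**
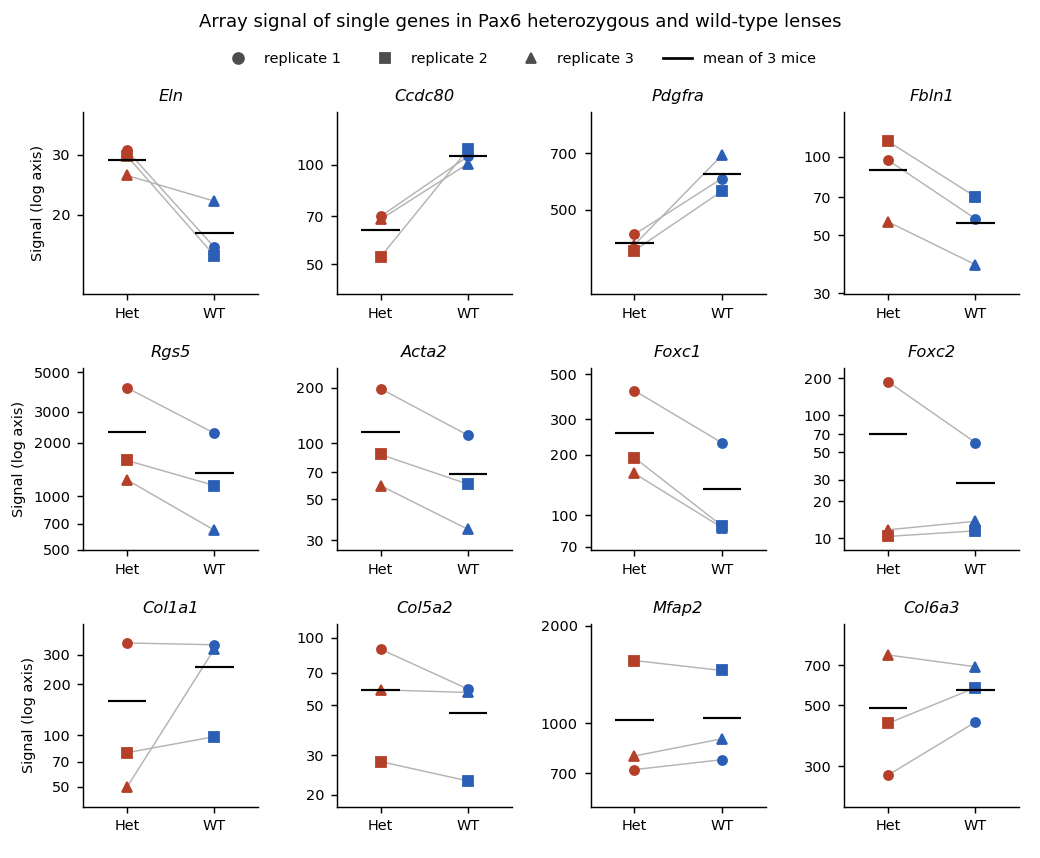
Array signal (vertical log axis, a range of its own in each panel) of 12 genes in Pax6 heterozygous (left, red) and wild type (right, blue) lenses. Symbols are single mice by replicate number, lines join same-numbered samples, and black bars are means of 3 mice. Eln, Ccdc80 and Pdgfra separate by genotype, Fbln1, Rgs5, Acta2 and Foxc1 have near-parallel lines with replicates far apart, and Mfap2 is highest in replicate 2 of both genotypes.

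Of the 5 genes of mural cells, the pericytes and smooth muscle cells that wrap vessels, 4 were called by replicate number. The share was 19.4% over all probe sets and 35.0% at a median of at least 50. Of the 5, 2 were highest in replicate 1 of both genotypes and 1 in replicate 2. Rgs5, a regulator of G-protein signaling and a pericyte marker, had the highest signal of all members, with 4093, 1594 and 1241 in heterozygous replicates 1 to 3, against 2269, 1152 and 644 in wild type replicates 1 to 3. Within each genotype replicate 1 was the highest and replicate 3 the lowest, and the genotypes overlapped. Replicate 1 was 2.25-fold above replicate 2 (adjusted p = 0.00889) and 3.41-fold above replicate 3 (adjusted p = 0.0149). The heterozygous sample was higher in each pair, by 0.85, 0.47 and 0.95 on the log2 scale. The difference of 0.76 had a standard error of 0.59 on genotype alone, where it did not pass the unadjusted threshold, and of 0.13 with the block, where it did (adjusted p = 0.263).

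Acta2, which encodes smooth muscle actin, followed the same order, with 197, 87.03 and 59.1 in the heterozygous and 110, 60.2 and 34.3 in the wild type replicates 1 to 3. Replicate 1 was 3.28-fold above replicate 3 (adjusted p = 0.0134), and the replicate number as a whole had an adjusted p of 0.00705, the smallest of all members. The log2 difference of 0.72 passed the unadjusted threshold with the block (standard error 0.11, adjusted p = 0.246) and not on genotype alone (standard error 0.56). The probe set used is of a type whose probes can match transcripts of related genes, so actin paralogs may contribute, and the other Acta2 probe set lay at background (9.50 to 12.5).

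Pdgfrb, the PDGF receptor of pericytes, had 91.6, 69.6 and 28.0 in the heterozygous and 45.7, 47.5 and 19.8 in the wild type replicates 1 to 3. Replicate 3 was the lowest in both genotypes, 2.74-fold below replicate 1 (adjusted p = 0.0225). All 3 pairs were higher in the heterozygous lenses (log2 difference 0.68; adjusted p = 0.299 with the block), and so were those of a second probe set (0.92 ± 0.38), which passed the unadjusted threshold with and without the block. Tagln, an actin-binding protein of smooth muscle, had 47.1, 57.3 and 27.1 in the heterozygous and 44.0, 59.0 and 20.9 in the wild type replicates 1 to 3. It was again lowest in replicate 3 (adjusted p = 0.00993), with no genotype difference past the threshold (0.14 ± 0.44 on the log2 scale).

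Cspg4, which encodes the pericyte proteoglycan NG2, was not called by replicate number. It had 13.0, 12.4 and 13.3 in the heterozygous and 13.6, 14.4 and 13.9 in the wild type lenses, close to background and without overlap. The log2 difference was only -0.11 ± 0.10, and the other Cspg4 probe set was higher in the heterozygous sample of each pair (0.15 ± 0.12).

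Of the 4 Rgs5 probe sets, the 2 other bright ones had the same sign of difference in each pair. They had 2332, 646 and 684 in the heterozygous and 1149, 575 and 369 in the wild type lenses, and 463, 92.2 and 90.6 in the heterozygous and 229, 56.7 and 36.9 in the wild type lenses. Both were called by replicate number (adjusted p = 0.0121 and 0.00695). The 1 remaining probe set was at background, from 11.2 to 14.3.

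Foxc1 and Foxc2 encode forkhead factors of the periocular mesenchyme that are needed for the front of the eye and for vessels. Foxc1 had 416, 193 and 161 in the heterozygous and 229, 88.8 and 86.97 in the wild type replicates 1 to 3. Replicate 1 was the highest in both genotypes, 2.36-fold above replicate 2 (adjusted p = 0.00624) and 2.61-fold above replicate 3 (adjusted p = 0.0166). The heterozygous sample was higher in each pair by a similar amount, 0.86, 1.12 and 0.89 on the log2 scale. The genotype difference of 0.96, which came to 0.55 without heterozygous replicate 1, had a standard error of 0.50 without the block and of 0.11 with it, where its adjusted p of 0.196 was the smallest among the members. A dimmer Foxc1 probe set gave 30.5, 26.1 and 21.7 in the heterozygous and 22.7, 18.4 and 17.8 in the wild type lenses (0.41 ± 0.17 on the log2 scale).

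Foxc2 was well above background in replicate 1 alone. It had 188, 10.3 and 11.7 in the heterozygous and 59.9, 11.5 and 13.7 in the wild type replicates 1 to 3, the largest difference between replicates of all members (adjusted p = 0.00941 for replicate 1 against 2). The heterozygous sample was higher in the pair of replicate 1 only, and the genotype difference had a wide interval (0.42, from -2.53 to 3.37). Foxd1, a forkhead factor of stromal progenitors, ranged from 10.3 to 19.5 and was called by replicate number (adjusted p = 0.0235). Twist1, a factor of neural crest mesenchyme, ranged from 9.25 to 20.3 without a call.

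Promoters are shown for Rgs5, Acta2 and Foxc1, the 3 members with the smallest p of the replicate number. Each is the 250 bases before the RefSeq start of the gene in mouse build GRCm38.p6, read 5′ to 3′ on the strand of the gene. They are not all the called genes highest in replicate 1 of both genotypes. Of the 7 such genes, Col3a1 and Foxd1 also had a window and are not shown. Capitals mark the motif CCAAT, searched on both strands, so that ATTGG is its reverse complement.
Rgs5, chr1:169655251-169655500, plus strand: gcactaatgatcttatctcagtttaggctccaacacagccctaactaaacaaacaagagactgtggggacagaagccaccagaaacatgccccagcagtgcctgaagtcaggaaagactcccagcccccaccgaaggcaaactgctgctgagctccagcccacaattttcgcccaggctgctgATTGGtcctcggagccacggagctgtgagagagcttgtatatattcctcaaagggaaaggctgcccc
Foxc1, chr13:31806396-31806645, plus strand: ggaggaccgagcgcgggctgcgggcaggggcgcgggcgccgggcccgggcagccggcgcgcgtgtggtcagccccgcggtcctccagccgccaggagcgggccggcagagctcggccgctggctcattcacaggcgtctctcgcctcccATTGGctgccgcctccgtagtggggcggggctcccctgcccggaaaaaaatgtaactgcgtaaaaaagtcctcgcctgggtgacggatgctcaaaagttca
Acta2, chr19:34255374-34255623, minus strand: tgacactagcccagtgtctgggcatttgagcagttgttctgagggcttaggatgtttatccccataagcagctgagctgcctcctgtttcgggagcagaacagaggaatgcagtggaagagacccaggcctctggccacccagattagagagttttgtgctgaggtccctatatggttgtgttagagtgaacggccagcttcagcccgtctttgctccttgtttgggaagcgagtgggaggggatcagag
The motif lay 67 to 63 bases before the start of Rgs5 and 101 to 97 before that of Foxc1, and Acta2 had none in this window. Of the 35 measured genes, 19 had a promoter window, and 6 of these held the motif (31.6%), beside 34.5% of 27025 mouse promoters of the same length. The CArG box, by which serum response factor binds smooth muscle genes, was searched as its strict consensus, with only A or T between CC and GG. It was found in 0 of the 19 windows, beside 1.4% of all promoters. Near matches were not counted. The Acta2 window holds ccctatatgg and ccttgtttgg, each with a C or G among the A or T positions, so the search does not show that it lacks such sites. The E-box CANNTG was in 9 (47.4%), Acta2 among them, beside 66% of all promoters. The shares of windows with a motif did not set the members above promoters at large.

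Of the genes in 4 related lists, 68 were measured. By replicate number 24 of the 68 were called (35.3%), and between the genotypes 1 had an unadjusted p under 0.05, Lmx1b, a factor of periocular mesenchyme near background (8.69, 8.13 and 8.13 in the heterozygous and 11.9, 9.66 and 10.5 in the wild type lenses). With the block 16 of the 68 passed (10 higher, 6 lower). The shares over all probe sets were 19.4% by replicate number (35.0% at a median of at least 50), 1.99% on genotype alone and 9.03% with the block. The list of further mural cell and smooth muscle genes had 8 of 16 called by replicate number. On average 8 of the 16 were highest in replicate 1, 3 in replicate 2 and 5 in replicate 3. Their median deviation from the genotype mean was 0.07, -0.12 and -0.13 on the log2 scale in replicates 1, 2 and 3. Kcnj8, a potassium channel subunit of pericytes, had 86.9, 26.6 and 14.9 in the heterozygous and 45.2, 17.1 and 7.93 in the wild type replicates 1 to 3, the same order as Rgs5 and Acta2. Abcc9, its regulatory partner, was likewise highest in replicate 1, at 180 in the heterozygous and 82.9 in the wild type lens. Myh11, Cnn1 and Actg2, which mark mature smooth muscle, stayed between 7.22 and 11.7.

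Of the genes that modify and process collagen, 7 of 16 were called by replicate number, led by the prolyl hydroxylase genes P4ha1, highest in replicate 1 (959 in the heterozygous and 1122 in the wild type lens), and P3h1, lowest in replicate 2 (217 in the heterozygous and 200.5 in the wild type lens). Of 18 further fibril and elastic fiber proteins, 7 were called. Among these Col2a1, the fibrillar collagen of cartilage and vitreous, had 130.2, 239 and 92.5 in the heterozygous and 81.3, 99.5 and 61.4 in the wild type lenses (log2 difference 0.84; adjusted p = 0.287 with the block). Of 18 other factors of periocular mesenchyme and neural crest, 2 were called, Prrx1 and Msx2, and 16 had a median signal under 50.

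Markers of some other cell types moved with the replicate number as well. Over all probe sets 19.4% were called, and 35.0% at a median of at least 50. Of 16 endothelial markers 13 were called, all 16 were highest on average in replicate 1, and their summed signal ranged from 1543 to 4849 in the heterozygous and from 1221 to 2738 in the wild type lenses. Their median deviation from the genotype mean was 0.69, -0.22 and -0.43 on the log2 scale in replicates 1, 2 and 3. The 5 mural members had 0.54, -0.01 and -0.79, the fibrillar collagens 0.61, -0.61 and -0.06 and the transcription factors 0.63, -0.19 and -0.46. Macrophage markers had 0.58, -0.06 and -0.80, with 8 of 16 called and summed signals of 388 to 2133 in the heterozygous and 614 to 1845 in the wild type lenses. Pigment cell markers had 0.48, -0.25 and -0.14, with 5 of 8 called and summed signals of 2029 to 3321 in the heterozygous and 2289 to 3548 in the wild type lenses. Lens fiber markers had -0.13, 0.13 and 0.00, with 3 of 15 called and summed signals of 139650 to 168506 in the heterozygous and 143108 to 173117 in the wild type lenses. Of these 15, 12 were highest in replicate 2 of both genotypes (21.1% of all probe sets). Of the retinal markers 0 of 10 were called, of lens epithelium 2 of 8, of corneal epithelium 1 of 7 and of red blood cells 1 of 3.

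No marker was at 0, as RMA values have no 0, but Sox18 of the endothelial list, Cx3cr1 of the macrophage list and Rpe65 of the pigment list stayed under 17 in all samples. Between the genotypes, 15 of the 16 endothelial markers had a difference above 0 (median 0.38), beside 46.5% of all probe sets. With the block, 6 of them passed an unadjusted p of 0.05, beside 9.03% of all probe sets. Of the 16 macrophage markers, 13 had a difference above 0 and 3 below (median 0.31), with a median of -0.40 in the pair of replicate 3. With the block 3 of these 16 passed. The 5 mural members had a median of 0.68, whereas that of the 16 further mural cell and smooth muscle genes was 0.02. Of these 16, 10 had a difference above 0 and 6 below. Of 10 retinal markers, 2 passed an unadjusted p of 0.05 and were higher, beside 0.977% of all probe sets. The genotypes did not overlap for 2 of the 10, heterozygous above, beside 2.65% of all probe sets. The summed signal of all 10 ranged from 822 to 1368 in the heterozygous and from 694 to 739 in the wild type lenses, without overlap. Their median difference was 0.005, 0.66 and 0.08 on the log2 scale in the pairs of replicates 1, 2 and 3. Lens epithelium markers summed to 8508 to 9674 in the heterozygous and 8842 to 10116 in the wild type lenses. Of these 8 markers, 6 had a difference below 0 and 2 above (median -0.21). With the block 2 passed an unadjusted p of 0.05 and were lower, beside 4.59% of all probe sets. All 7 measured markers of corneal epithelium and all 3 of red blood cells had medians under 50. RNA quality also differed by number: the log2 ratio of 3′ over 5′ probe sets of actin was 1.64, 1.01 and 1.71 in the heterozygous and 1.65, 1.08 and 1.67 in the wild type replicates 1 to 3, lowest in replicate 2. The part of these other cell types and of RNA quality in the differences between replicates and genotypes was not tested.

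**Figure D4:**
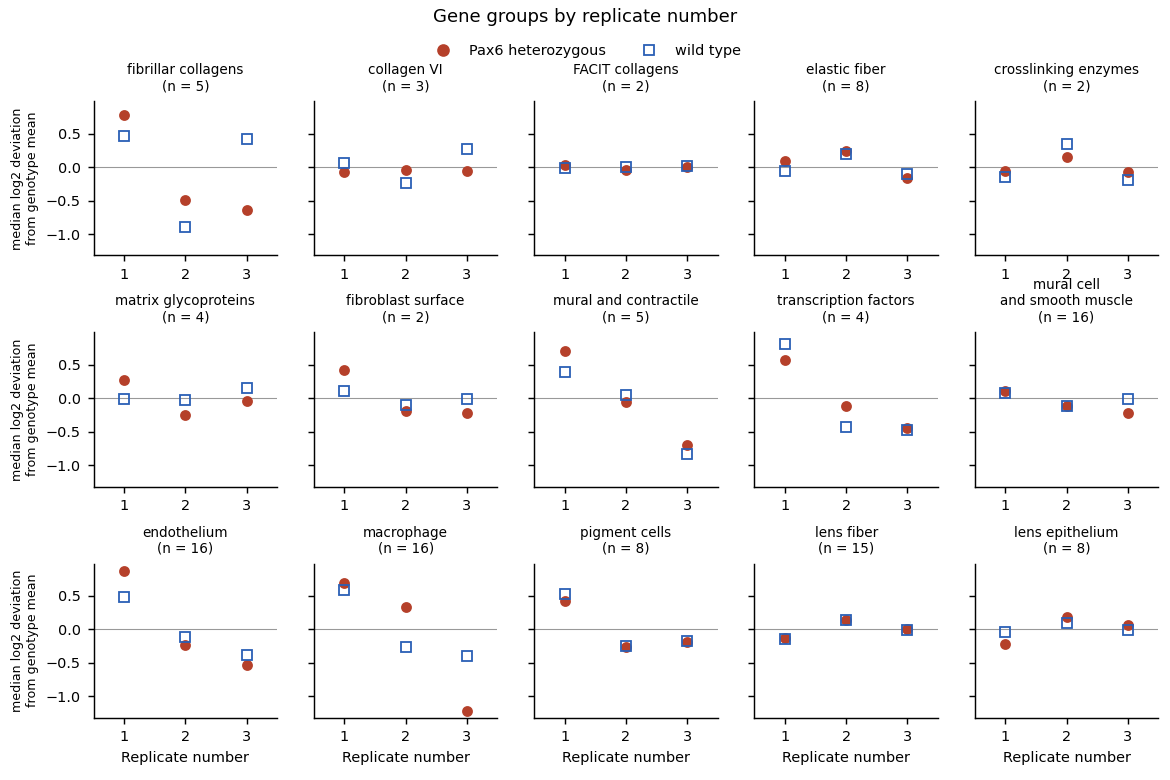
Median log2 deviation of each gene group from its genotype mean (vertical axis) by replicate number (horizontal axis), in Pax6 heterozygous (filled circles) and wild type (open squares) lenses, with the number of measured genes above each panel. The medians of the mural members, endothelial markers and transcription factors are highest in replicate 1 of both genotypes, while the fibrillar collagens differ between the genotypes in replicate 3. The median of the lens fiber genes deviates less than those of these groups, and is lowest in replicate 1 and highest in replicate 2 of both genotypes. Of the 5 mural members, 2 are themselves highest in replicate 1 of both genotypes. The median of the further mural cell and smooth muscle genes is only 0.10 in heterozygous and 0.07 in wild type replicate 1.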

How the data were processed

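The arrays measured RNA of newborn lenses in 3 Pax6 heterozygous and 3 wild type mice, after amplification of 50 ng of total RNA per sample by the NuGEN system. The authors deposited signal intensity values made by RMA, a method that removes background, brings arrays to a common distribution and reduces probes to a value per probe set. Its version is not given in the sources used here. From these, log2 values were computed without further normalization. The 64 control probe sets were left out, 22626 were tested, and genes were taken from the annotation table of the platform (20380 probe sets with 1 gene, 691 with several, 1555 with none). All 35 measured members matched a RefSeq gene. The number of probe sets is that of a smaller array than the type named in the methods, which is not settled here.

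Genotypes were compared by lmFit and eBayes of limma 3.58.1 (R 4.3.3), as heterozygous minus wild type. Benjamini-Hochberg adjustment ran over all probe sets tested, with a threshold of 0.05. All p values are two-sided, except that of the F test. Same-numbered samples correlated in their deviations from the genotype means (0.645, 0.734 and 0.604, against -0.496 to -0.0751 for different numbers), so the numbers were taken to pair the samples, though the sources do not say what they share. Deviations within a genotype cancel out, so positive values for the same number push those for different numbers down. The pairing was chosen on the same data that the fit with the block used. The replicate number was tested by an F test in a fit with genotype as a term. The steps were tested on simulated data. The members and lists were chosen with earlier results of these data known. Single values are given for the 8 members with the smallest p of genotype and of replicate number, those without overlap, those in the study's list of differing genes (Eln, Ccdc80, Col14a1 and Pdgfra) and the brightest of each role. Related genes named are those with the smallest p, and Dcn, Lum, Myh11, Cnn1 and Actg2 were added after their values were seen. Promoter sequences are from RefSeq, and figures were drawn with matplotlib 3.10.9. Alternatives were the methods' t-test, quantile normalization, median centring, array weights, a robust prior with an intensity trend, a median signal of at least 50, the mean of the probe sets of a gene, the replicate block, no genotype term, and leaving out each sample.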

Additional observations from a re-analysis of the deposited data

How the results depend on the processing

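No member passed the adjusted genotype threshold under any of the 13 alternatives run. The count at an unadjusted p under 0.05 was 4, 12 with the replicate block (the 4 among them), 6 with the block over probe sets with a median signal of at least 50, an alternative chosen after seeing the data, 2 without the block at that bound, and 3 to 6 when single samples were left out. The block gave no member an adjusted p under 0.05. The bound leaves fewer genes to test, 14 of 35. The median log2 difference over members was 0.12, 0.18 at that bound, and 0.0188 to 0.268 when single samples were left out. Genes called by replicate number were 14, 9 at that bound, 8 with no genotype term and 9 to 12 when single samples were left out; with the block, leaving out samples gave 11 to 14 genes at an unadjusted p under 0.05. Of 121 values of the 9 members followed for genotype, 120 kept their direction. Their adjusted p lay far above the threshold in each, which says nothing about stability. Eln, Ccdc80 and Pdgfra kept an unadjusted p under 0.05 in all alternatives run, and Tnc, Col14a1, Fbln1, Lox, Foxc1 and Cspg4 did not stay on a single side of it. The exception in direction was Cspg4, whose difference of -0.11 came to 0.0202 as the mean of its probe sets. Of 93 values of the 8 members followed for replicate number, 87 stayed past the threshold and 6 did not: Pdgfrb without heterozygous replicate 3 (adjusted p = 0.0583) and with no genotype term (0.0583), Mfap2 without heterozygous replicate 2 (0.0672), Tagln without wild type replicate 3 (0.0524), and Rgs5 and Foxc1 with no genotype term (0.0509 and 0.143). The cause was not tested. Dim signal limits the 12 members that stayed under 25, where values near background compress ratios.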
